A study of Mus musculus with 2 samples.

Results

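Large intergenic noncoding RNAs (lincRNAs) are LncRNAs transcribed between protein-coding genes. The Arraystar Mouse LncRNA v2.0 array carries probes for lincRNA exon regions of the mouse genome, each named MM9LINCRNAEXON with a number and a strand sign. Of 1729 such regions, 1728 had a plus and a minus strand probe, and 1 of these was lost to an outlier-flagged spot, which left 1727. The regions described here are the 713 (41.3% of 1727) in which both strand probes carried the flag for a signal well above background on the control array. The scanner software sets this flag where a spot clearly exceeds its local background, and a flagged strand is called above background in what follows. A single strand was above background in 773 regions and neither strand in 241. The members were thus chosen by their control signals, and what follows from that choice is given as description. The cutoff lay at a processed signal, the background-subtracted brightness of a spot, of about 13: the dimmest member strand had 12.7, and the brightest strand that missed the flag had 12.6. The numbers in the region names ran from 10002 to 12127, and the files give neither coordinates nor sequences for them.

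The series had 1 control array and 1 ischemia/reperfusion (I/R) array, each hybridized with liver RNA labelled in a single colour (Cy3). Mice were male C57BL/6J of 10 to 12 weeks. RNA for the I/R array was mixed from 3 livers after partial ischemia of 70% of the liver for 60 minutes and reperfusion for 6 hours. The control liver, called sham in the study's results, had no such ischemia, and whether it was a mixture too is not stated. A mixture averages the mice, and with 1 array per condition there was no replicate check, no test between conditions and no p-value. The 95% intervals given below were built from the error that the scanner software reports for a spot, so they hold that error alone. At dim signals they can be narrower than the spread between spots of negative-sequence probes given below. Both arrays lay on the same slide and were read in the same scan. Of 61194 non-control spots, 42038 were above background on the control array, and 38819 were so after I/R. Saturation was found in 0 spots. Of 24 marker genes of liver cell types, 0 were named by a probe accession, so the tissue could not be checked by its markers. The study states that the array also reads protein-coding transcripts, so probes for these genes may be present under other names. In whole liver, fewer cells of a type and less RNA per cell cannot be told apart.

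A genomic region can be read into RNA from either strand. RNA from the strand opposite to a known transcript is called antisense, and antisense LncRNAs can pair with the sense RNA, affect its chromatin or interfere with its transcription. Active enhancers and many promoters are also transcribed in both directions, often much more in one direction than in the other. A strand-specific probe pair for each region reads these RNAs separately. The ratio of a plus to a minus probe on 1 array also carries the brightness of the probes themselves. A part of it that multiplies the signal drops out when the ratio on the I/R array is set against that on the control array. A part that is added to the signal does not, and it weighs most on dim strands. How labelling kept the strand is not given in the sources used here, and nor is whether the probes of a region overlap. Plus and minus below are the signs in the probe names.

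On the control array the strands of a region were mostly unequal. The stronger strand had a normalized signal (processed signal after quantile normalization) of 15.4 to 210272, with a median of 190. The weaker strand ran from 12.5 to 2372, with a median of 32.1. The plus strand was the stronger one in 371 regions and the minus strand in 342, and the medians of the plus and minus probes were 74.0 and 62.2. The levels of the strands of a region were nearly uncorrelated. Across the 713 regions the log2 plus and minus signals had r = −0.04 and rho = −0.05, and across all 1727 regions r = 0.06 and rho = 0.04. The points are probe pairs of 1 array, so these values are descriptions. The plus probe was above background in 62.7% of the 1137 regions whose minus probe was, and in 59.2% of the 590 regions whose minus probe was not.

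The flag for background also marked probes that the array names as negative sequences, and so did not by itself show transcription from both strands. The array carries 20 negative-sequence probes with 60 spots each. Of these 1200 spots, 272 (22.7%) were above background on the control array and 171 (14.2%) on the I/R array. The flagged spots were concentrated in few probes: 6 of the 20 passed on most of their control spots, and the other 14 on fewer than 1 in 10. The brightest, MM9NEGATIVE020, had a median processed signal of 67.4 on the control array and 59.5 on the I/R array. The weaker strand exceeded 67.4 in 175 of the 713 regions (24.5%), and in 151 of these it was above 59.5 on the I/R array too. Below that level a second strand could not be told apart from the signal of a negative-sequence probe. Among the 175 regions, 117 differed between strands by at least 2-fold on the control array, and the median difference was 4.60-fold.

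**Figure D1:**
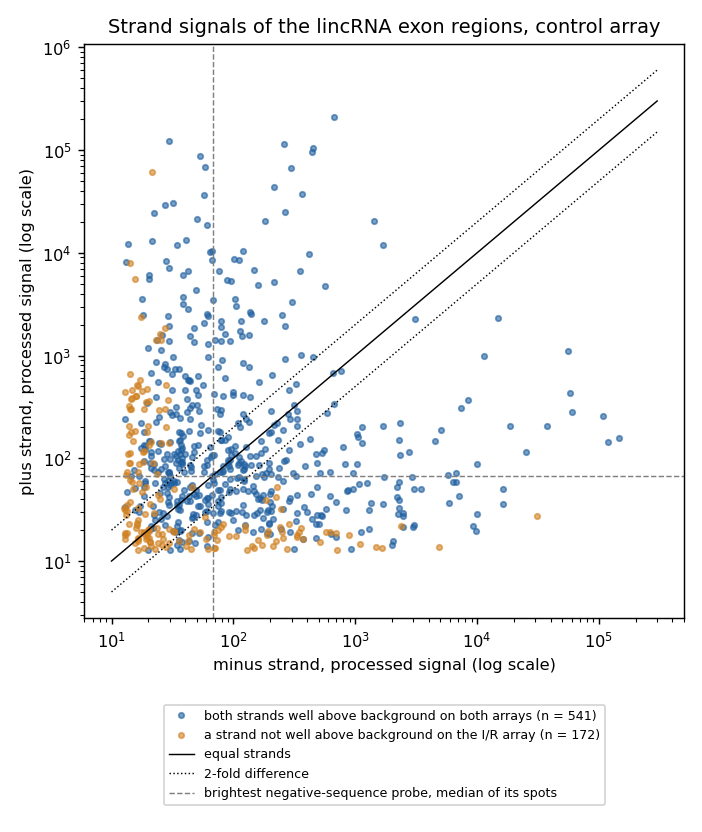
Processed signal of the minus (x axis) and plus (y axis) strand probe of the 713 regions on the control array, both on log scales; orange points had a strand that was not above background on the I/R array, and dashed lines mark the 67.4 of the brightest negative-sequence probe. Points lie along both axes, and 190 of the 713 lie within 2-fold of the line of equal strands.

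The difference between strands, taken as the stronger over the weaker normalized signal, had a median of 4.73-fold (2.24 on the log2 scale) on the control array. With normexp background correction the median was 1.19 on the log2 scale. It was at least 2-fold in 523 regions (73.4%), against 61.9% of 318 plus and minus pairs of the other 3 probe families on this array (ultraconserved regions, human lincRNA loci and mouse lincRNA loci) chosen by the same flag. It was under 2-fold in 190 regions, from 2 to 4-fold in 136, from 4 to 16-fold in 185, from 16 to 64-fold in 114 and 64-fold or more in 88. On the I/R array the median was 5.08-fold, and 542 regions (76.0%) differed by at least 2-fold, against 65.4% of the other pairs. The median difference of the other pairs was 2.61-fold on the control array and 2.92-fold on the I/R array. The plus strand was the stronger one in 375 regions on the I/R array and the minus strand in 338. In the other families fewer pairs had both strands above background on the control array: 95 of 481 ultraconserved regions (19.8%), 145 of 607 human lincRNA loci (23.9%) and 78 of 340 mouse lincRNA loci (22.9%). These are different probes, and the difference was not tested.

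The strand ratio of a region was much the same on both arrays. Its log2 value on the control array had r = 0.97 and rho = 0.96 with that on the I/R array over 713 regions, and r = 0.98 and rho = 0.97 over the 541 with both strands above background on both arrays. The same probes were read on each array, so their own brightness adds to this likeness. Over the 541 regions the ratio shifted between arrays by a median of 1.32-fold in either direction, and by up to 2.24-fold in 9 of 10 regions.

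**Figure D2:**
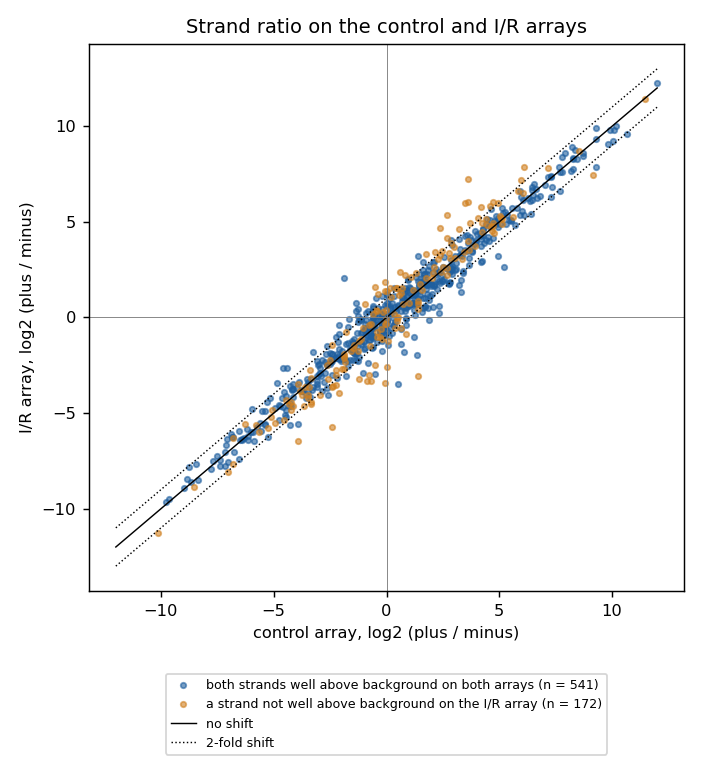
Log2 ratio of plus over minus normalized signal of each of the 713 regions on the control array (x axis) and the I/R array (y axis), with dotted lines at a 2-fold shift. Most regions lie between the dotted lines, and r is 0.97.

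The regions with the brightest strand pairs kept both signals close to level. MM9LINCRNAEXON10151 had the highest signals, 210272 on the control array and 221008 on the I/R array for plus, and 675 and 706 for minus, a plus to minus ratio of 312 and 313. MM9LINCRNAEXON10974 was as steady in the other orientation: its minus strand had 53940 and 52377, its plus strand 1111 and 1128. MM9LINCRNAEXON10465 had 93452 and 90480 for plus and 446 and 465 for minus. In MM9LINCRNAEXON10504 the plus strand was 101779 and 96547, while the minus strand was lower on the I/R array, 457 and 288, at 0.631-fold of control (interval 0.478 to 0.834). In MM9LINCRNAEXON10763 both strands were bright and both were somewhat higher on the I/R array: plus was 2372 and 3482 (1.47-fold, interval 1.11 to 1.94) and minus 14790 and 19585 (1.32-fold). MM9LINCRNAEXON11332 had 20461 and 16138 for plus and 1460 and 1457 for minus, so that its ratio of 14.02 on the control array was 11.1 on the I/R array. Of these 12 strands, 1 was past a fold of 1.5 or 0.7.

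The most one-sided regions paired a strand among the brightest on the array with a dim one. MM9LINCRNAEXON11400 had 120744 for plus and 29.3 for minus on the control array, a ratio of 4120, and 116362 and 23.4 on the I/R array, a ratio of 4973. MM9LINCRNAEXON11822 had 60569 and 21.4 on the control array, a ratio of 2830, and its minus strand was not above background on the I/R array. MM9LINCRNAEXON10664 had 85108 and 52.9, a ratio of 1609, which was 785 on the I/R array as minus went to 89.3 and plus to 70100. Toward minus, MM9LINCRNAEXON11530 had 30810 for minus and 27.3 for plus, a ratio of 1130, and its plus strand was not above background on the I/R array beside 28090 for minus. MM9LINCRNAEXON10315 had 140327 and 160 (ratio 877), and 143758 and 178 on the I/R array. MM9LINCRNAEXON10608 had 116362 and 146 (ratio 797), and 104909 and 143 on the I/R array. In 4 of these 6 regions the weaker strand was below the brightest negative-sequence probe. At the other end, the 4 regions with the most equal strands were all dim: on the control array MM9LINCRNAEXON10638 had 19.8 for each strand, MM9LINCRNAEXON11978 had 18.2, MM9LINCRNAEXON10630 had 20.3, and MM9LINCRNAEXON11421 had 43.1 for plus and 42.9 for minus. On the I/R array both strands of MM9LINCRNAEXON10638 and the minus strand of MM9LINCRNAEXON11978 were not above background.

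Shifts of the strand ratio after I/R went both ways in like numbers. The ratio of I/R over control was at least 2-fold toward plus in 69 regions (9.68%) and toward minus in 71 (9.96%). In the other families it was 8.49% and 11.0%, so these shares were near the background of the array. With normexp background correction, which adds an offset of 50 to each signal, 9 and 16 of the 713 regions shifted. In 57 of the 140 shifted regions a strand was not above background on the I/R array and its level there is only a bound. Among the 541 regions measured on both arrays, 35 (6.47%) shifted toward plus and 48 (8.87%) toward minus, against 5.65% and 7.39% of 230 pairs of the other families. When the spot measurement interval also had to exclude no shift, 46 and 61 of the 713 were left. The spots of MM9NEGATIVE020 give a measure of spread within the arrays: the log2 fold between arrays had an SD of 0.29 over its 60 spots, and for a difference of 2 such folds that is 0.41, where a 2-fold shift is 1. For the dimmer MM9NEGATIVE009, with a median of 29.7 on the control array, the SD was 0.52. For the 4 other negative-sequence probes that passed on most of their control spots, with medians of 12.8 to 18.5, it was from 0.68 to 1.04, before the spread of a second strand is added. The standard error of the shift behind the intervals had a median of 0.36 on the log2 scale. At dim signals the intervals can thus be narrower than the spread between spots, and the 46 and 61 rest on them.

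Shifts were most common where the weaker strand was dim. Of 356 regions with a weaker strand under 32 on the control array, 51 shifted toward plus and 38 toward minus (25.0% in all). From 32 to 64 it was 7 and 17 of 169 regions (14.2%), from 64 to 128 it was 8 and 9 of 111 (15.3%), and from 128 upward 3 and 7 of 77 (13.0%). The median size of the shift was 1.45-fold, 1.30-fold, 1.33-fold and 1.28-fold in these 4 classes. Both strands were above background on the I/R array in 190, 163, 111 and 77 regions of these classes. Shifts in the dimmest class thus rest far more often on a strand whose I/R level is only a bound.

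**Figure D3:**
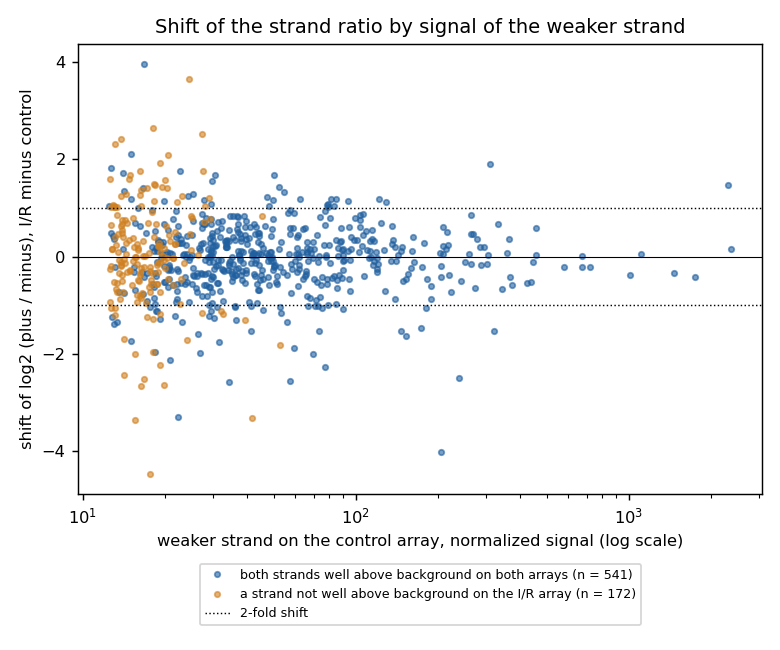
Shift of the strand ratio, log2 plus over minus on the I/R array minus that on the control array (y axis), against the normalized signal of the weaker strand on the control array (x axis, log scale), with dotted lines at 2-fold. The spread is widest under a signal of 32, where 25.0% of 356 regions lie outside the lines. Of these 356 regions, 190 had both strands above background on the I/R array.

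Most shifts of the 541 regions came with a change of 1 strand. A 2-fold shift nearly requires a strand past 1.5 or 0.7, so a call on at least 1 strand was nearly fixed by the cutoffs. In 39 of the 83 shifted regions only the favoured strand was higher (at least 1.5-fold) on the I/R array, in 27 only the other strand was lower (at most 0.7-fold), and in 15 both held. In 1 region both strands were higher, and in 1 both were lower. The strands came closer in 50 regions and grew apart in 33. Of the 35 shifts toward plus, 26 were in regions with the stronger strand on minus, and of the 48 toward minus, 35 were in regions with the stronger strand on plus. Both strands of the 541 regions had to be above background on both arrays, so a dim weaker strand could rise but not fall far. This choice favours strands that came closer in all of these counts, and the excess was not tested.

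Toward plus, MM9LINCRNAEXON10849 shifted furthest among the 541 regions. Its plus strand had 16.8 on the control array and 130 on the I/R array (7.77-fold, interval 5.18 to 11.7), and its minus strand had 61.4 and 30.8 (0.502-fold, interval 0.349 to 0.722). The stronger strand was minus on the control array and plus on the I/R array, and the ratio shifted 15.5-fold (interval 8.98 to 26.7). MM9LINCRNAEXON11331 was the brightest of the 5 largest shifts toward plus in these 541. Its plus strand had 309 and 784 (2.53-fold, interval 1.92 to 3.35) beside a minus strand of 7336 and 4975 (0.678-fold), so that minus exceeded plus 23.7-fold on the control array and 6.34-fold on the I/R array. In MM9LINCRNAEXON11765 the plus strand went from 33.5 to 174 (5.20-fold) and the minus strand from 12.7 to 18.7, a shift of 3.54-fold (interval 1.79 to 6.97). MM9LINCRNAEXON11950 had 15.0 and 31.6 for plus and 37.9 and 18.4 for minus, a shift of 4.35-fold (interval 2.20 to 8.59). MM9LINCRNAEXON10349 had 22.7 and 38.1 for plus and 483 and 240 for minus, a shift of 3.38-fold (interval 2.09 to 5.48). Of these 5 regions, MM9LINCRNAEXON11331 alone had both strands above the brightest negative-sequence probe on both arrays.

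Toward minus, the largest shift among the 541 regions was that of MM9LINCRNAEXON10780, which lay in its plus strand. That strand had 291 on the control array and 18.5 on the I/R array, 15.8-fold lower and just above the lowest signal above background there (17.5), while its minus strand had 204 and 209 (1.02-fold). The shift was 16.1-fold (interval 9.39 to 27.7). In the next 4 regions the minus strand was higher on the I/R array. MM9LINCRNAEXON11201 had 57.4 and 556 for minus (9.68-fold, interval 7.24 to 12.9), and its plus strand was also higher, 2125 and 3484 (1.64-fold). Plus stayed the stronger strand, by 37.0-fold on the control array and by 6.27-fold on the I/R array. MM9LINCRNAEXON10003 had 34.2 and 214 for minus (6.26-fold, interval 4.58 to 8.57) beside 58.9 and 61.7 for plus. MM9LINCRNAEXON10858 had 22.4 and 141 for minus (6.31-fold, interval 4.42 to 9.02) beside 57.2 and 36.7 for plus (0.643-fold), a shift of 9.82-fold. In MM9LINCRNAEXON10982 the strands moved apart from near equal signals: plus was 239 and 75.5 (0.315-fold, interval 0.235 to 0.422) and minus 336 and 596 (1.77-fold, interval 1.34 to 2.34), a shift of 5.62-fold (interval 3.76 to 8.42). Of the regions with these shifts toward minus, MM9LINCRNAEXON10982 alone had both strands above the brightest negative-sequence probe on both arrays.

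**Figure D4:**
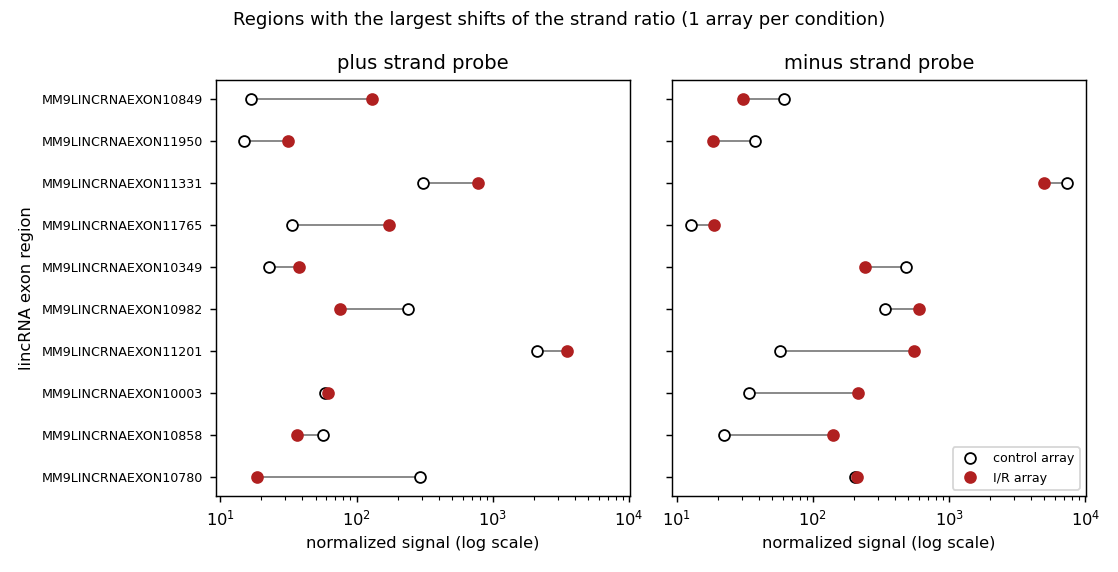
Normalized signal (log scale) of the plus strand (left panel) and minus strand (right panel) of the 10 regions with the largest shifts of the strand ratio (5 each way) among the 541 above background on both arrays, on the control array (open) and the I/R array (filled), 1 array per condition. In MM9LINCRNAEXON10780 plus is 291 and 18.5 while minus is 204 and 209, and in MM9LINCRNAEXON11201 minus is 57.4 and 556.

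The stronger strand was not the same on both arrays in 64 regions (8.98%), against 13.2% of the pairs of the other families. Strands of those pairs differed less on the control array (median 2.61-fold against 4.73-fold), and whether this accounts for the difference in shares was not tested. Of the 64, 46 had both strands above background on both arrays. In 3 of these 46 the strands differed by at least 2-fold on each array: MM9LINCRNAEXON10849 and MM9LINCRNAEXON10858, given above, and MM9LINCRNAEXON10492. The last had 182 and 34.1 for plus (0.188-fold, interval 0.133 to 0.264) and 77.1 and 69.5 for minus (0.902-fold), so that plus was 2.36-fold the stronger strand on the control array and minus 2.04-fold the stronger on the I/R array.

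Taken strand by strand, 130 of the 1426 strands (9.12%) were higher on the I/R array, and 265 (18.6%) were lower. This split depended on the scaling: it was 171 higher and 219 lower with cyclic loess, and 52 and 53 with normexp background correction. Among all 41464 probes above background on the control array, 10.1% were higher and 17.4% lower, so the strands of these regions were near the whole array. Plus strands accounted for 59 of the higher and 121 of the lower calls, and minus strands for 71 and 144. The stronger strand was higher in 54 regions and lower in 113, the weaker strand higher in 76 and lower in 152. The median fold was 0.921 for stronger and 0.922 for weaker strands, against 0.933 over the 41464 probes. In the 541 regions measured on both arrays, 116 strands were higher and 135 lower. All of these probes were chosen by being above background on the control array, with no such demand on the I/R array, so a lower signal could enter these counts more easily than a higher one.

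Both strands seldom passed a threshold together. Both were higher in 10 regions (1.40%, against 1.26% of the other pairs), both lower in 29 (4.07%, against 5.66%), and they passed in opposite directions in 27 (3.79%, against 3.77%). Only 1 strand was higher in 83 regions (11.6%, against 6.92% of the other pairs), and only 1 was lower in 180 (25.2%, against 32.7%). In 384 (53.9%, against 49.7%) neither strand passed. In the 541 regions the counts were 10, 12, 15, 81, 96 and 327. The log2 folds of plus and minus had r = 0.02 and rho = 0.05 over 713 regions, and r = 0.11 and rho = 0.12 over the 188 with both strands at 64 or more on the control array. These points are probe pairs that share their arrays, and correlations of this size in dim signals are no finding.

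**Figure D5:**
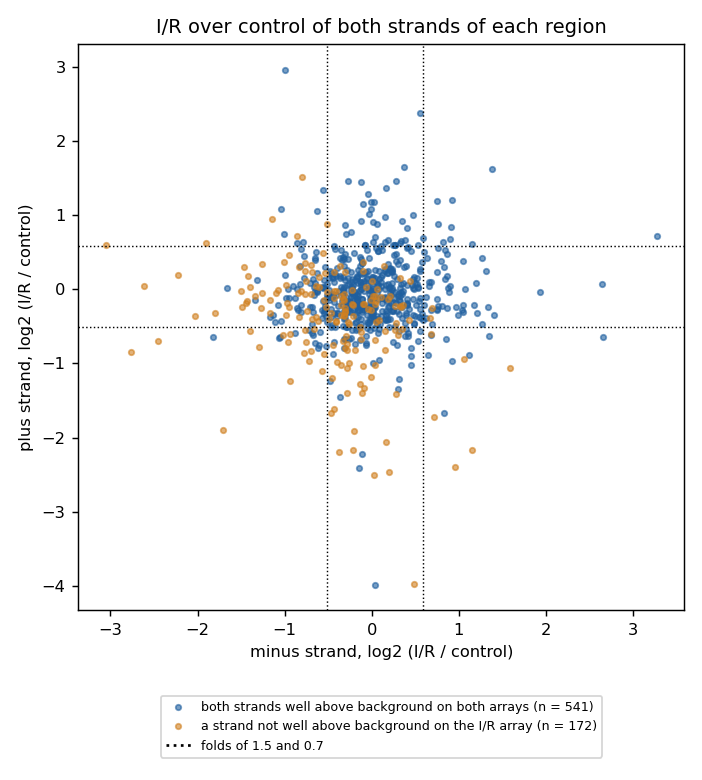
Log2 fold of I/R over control of the minus (x axis) and plus (y axis) strand of the 713 regions, with dotted lines at folds of 1.5 and 0.7. The points form a round cloud with more regions low on 1 strand (180) than high on 1 strand (83), and 10 regions lie in the corner with both strands higher. Pairs of the other families, not shown, were also more often low (32.7%) than high (6.92%) on 1 strand.

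Regions with both strands higher or both lower were ranked among the 541 by the strand that changed less. Of those with both higher, MM9LINCRNAEXON11295 changed most. Its plus strand had 2188 and 6726 (3.07-fold, interval 2.33 to 4.06) and its minus strand 79.6 and 207 (2.60-fold, interval 1.95 to 3.46), so the ratio moved little, from 27.5 to 32.5. MM9LINCRNAEXON10229 had 2199 and 5077 for plus (2.31-fold) and 177 and 337 for minus (1.90-fold). MM9LINCRNAEXON10942 had 5304 and 9496 for plus (1.79-fold) and a minus strand of 179 on the I/R array (1.88-fold). In these 3 regions a bright plus strand and a minus strand above the brightest negative-sequence probe were higher together. MM9LINCRNAEXON11068 was dim on both strands, with 39.1 and 71.5 for plus and 36.9 and 62.4 for minus. Of the 4 ranked first with both strands lower, MM9LINCRNAEXON11683 was the brightest, with 162 and 103 for plus (0.638-fold) and 1069 and 516 for minus (0.482-fold). MM9LINCRNAEXON11473 had 108 and 68.6 for plus (0.633-fold) and 96.2 and 45.8 for minus (0.476-fold). MM9LINCRNAEXON10841 had 91.2 and 55.2 for plus and 37.7 and 24.0 for minus. In MM9LINCRNAEXON10106 minus changed more than plus, with 93.7 and 26.5 (0.283-fold) beside 62.3 and 39.9 (0.641-fold). Its ratio thus also shifted, by 2.27-fold toward plus.

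Besides MM9LINCRNAEXON10849 and MM9LINCRNAEXON11950, the largest changes in opposite directions among the 541 regions, ranked by the strand that changed less, were in MM9LINCRNAEXON11824 and MM9LINCRNAEXON10485. MM9LINCRNAEXON11824 had 108 and 58.5 for plus (0.540-fold, interval 0.398 to 0.731) and 69.8 and 152 for minus (2.17-fold, interval 1.62 to 2.90), a shift of 4.02-fold (interval 2.64 to 6.12). MM9LINCRNAEXON10485 had 59.4 and 30.5 for plus (0.513-fold) and 121 and 230 for minus (1.89-fold), a shift of 3.69-fold (interval 2.32 to 5.85).

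On the I/R array both strands were again above background in 541 of the 713 regions (75.9%), against 72.3% of the other pairs. Of the 1426 strands 191 (13.4%) were no longer above background, against 10.3% of the 41464 probes. The lowest normalized signal above background was 12.5 on the control array and 17.5 on the I/R array, so a strand between these values could pass on the control array alone. In 145 of the 172 regions it was the weaker strand that was lost, in 8 the stronger, and in 19 both. Apart from those 19, plus was lost in 74 and minus in 79. The 3 brightest strands lost were all on plus. MM9LINCRNAEXON10033 had 52.7 there on the control array and 11.47 on the I/R array, at least 3.01-fold lower when set against 17.5, beside 229 and 176 on minus. MM9LINCRNAEXON11418 had 50.2 and 16.4 (at least 2.86-fold lower) beside 32.6 and 24.2, and MM9LINCRNAEXON11836 had 46.4 and 2.95 (at least 2.65-fold lower) beside 17.6 and 24.7. All 3 lost strands were below the brightest negative-sequence probe on the control array.

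The study lists 9 strand probes of lincRNA exons among the LncRNAs it gives as changed, and 7 of them belong to the regions described here. Those lists were made from these same arrays and are no independent evidence of direction. The strand opposite to the listed one had folds from 0.502 to 1.64. It was between 0.7 and 1.5 in 4 regions (MM9LINCRNAEXON10003, MM9LINCRNAEXON10780, MM9LINCRNAEXON11143 and MM9LINCRNAEXON10492), past a threshold in the opposite direction in 2 (MM9LINCRNAEXON10849 and MM9LINCRNAEXON10858), and past it in the same direction in 1 (MM9LINCRNAEXON11201). MM9LINCRNAEXON11143, not yet described, had 106 and 22.6 for plus (0.214-fold, interval 0.142 to 0.323) and 20.8 and 19.3 for minus (0.927-fold), a shift of 4.34-fold toward minus. The other 2 listed strands, of MM9LINCRNAEXON11558 and MM9LINCRNAEXON12113, had an opposite strand that was not above background, 2.95 and 6.44 in the first and 9.57 and 2.95 in the second.

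Region numbers may follow genome order, but the files do not say so. Among 269 pairs of members with adjacent numbers, the same strand was the stronger one in 54.6% on the control array, and r of the log2 strand ratio was 0.06. At a number distance of 10 it was 50.4% of 242 pairs, with r = 0.04. The longest runs of members with consecutive numbers held 9 regions (MM9LINCRNAEXON10818 to MM9LINCRNAEXON10826, plus stronger in 6), 8 (MM9LINCRNAEXON11016 to MM9LINCRNAEXON11023, plus stronger in 6) and 7 (MM9LINCRNAEXON10519 to MM9LINCRNAEXON10525, plus stronger in 3). Neighbours by number thus shared their stronger strand little more often than distant ones, and this was not tested.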

How the data were processed

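Per the labels, spots were extracted by the authors with Agilent Feature Extraction 11.0.1.1. Deposited intensities are processed signals, from which background is already subtracted. The deposited series table held the same intensities, with 0 differing values. The study's methods name quantile normalization and thresholds of 1.5 and 0.7. Control spots, negative-sequence probes and 31 spots flagged as outliers were removed, repeated spots were averaged per probe, and 59692 probes were quantile-normalized on the log2 scale with limma 3.58.1 in R 4.3.3. Ratios and counts were computed in Python 3.11.15. Intervals are 1.96 standard errors on each side. The number of arrays limits the precision of every difference between conditions. The members, lists and alternatives were chosen with earlier results of these data known. Regions were named by fixed ranks (brightest, most and least one-sided, largest shifts, both strands higher or lower, opposite, stronger strand changed, strand lost, longest runs) or because the study lists a strand. The scripts were tested on simulated data. Normexp (offset 50) used the median signal. No sequence is printed, since the files used here pair none with these regions.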

Additional observations from a re-analysis of the deposited data

Results flagged for a closer look

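The choice by the control array leaves out 36 lincRNA exon regions with both strands above background on the I/R array. On the control array at least 1 strand of each was not above background. They lie among the regions outside the 713 members, of which 773 had 1 strand above background on the control array and 241 neither. In most of the 36 the weaker strand on the I/R array was below the 59.5 of the brightest negative-sequence probe there. How many of all probes gained the flag on the I/R array was not counted. Among the members, 172 had a strand that was not above background on the I/R array. The 36 were picked by the flag on both strands on the I/R array and its absence from at least 1 strand on the control array. For a strand without the flag on the control array, a higher signal on the I/R array was thus fixed by the choice. A strand with the flag on both arrays could go either way. Of these, MM9LINCRNAEXON11939 had 2.95 for plus on the control array and 415 on the I/R array, at least 33.2-fold higher when set against the lowest signal above background on the control array, beside 5686 and 5533 for minus. MM9LINCRNAEXON11857 had 12.05 and 383 for minus (at least 30.7-fold higher) beside 41.4 and 53.4 for plus. That plus strand was below the brightest negative-sequence probe on both arrays. MM9LINCRNAEXON11497 had 2.95 and 214 for plus (at least 17.1-fold higher) beside 125 and 97.2 for minus. The 2 values of 2.95 are the lowest normalized signal on the arrays.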

How the results depend on the processing

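No paired analysis was possible because each condition has a single array, and for the same reason no array could be left out. Scaling to the 75th percentile, the deposited table without normalization and keeping flagged spots left the counts run under them within 1.5 times their values and the medians within their intervals. Asking for every probe of a strand was run for the number of regions only, which stayed at 713. The order of values below is: regions in all, strand differences of at least 2-fold on the control and the I/R array, shifts toward plus and minus, stronger strand changed, strands higher and lower, both strands higher, both lower and opposite, naming only what moved. With strands positive and significant on the control array in place of above background there were 1202 regions, 953 and 958 differences (medians 2.70 and 2.80 on the log2 scale), 161 and 162 shifts, 111 changes of the stronger strand, 301 strands higher and 497 lower, and 24, 52 and 57 regions. With both strands at 64 or more on the control array there were 188, then 125 and 142, 11 and 16, 15, 34 and 49, and 4, 4 and 5, with a median log2 fold of −0.0201 for stronger strands. With the weaker strand above the brightest negative-sequence probe, chosen after seeing the data, there were 175, then 117 and 133, 11 and 15, 15, and 4, 4 and 5. In both, fewer regions are tested, and the cause of further change was not tested. With strands above background on both arrays there were 35 shifts toward plus, 135 strands lower, 12 regions with both lower, 15 opposite, and a median log2 fold of −0.0018 for weaker strands. With the flag on the I/R array there were 138 lower and 12 both lower, and the median of weaker strands turned from −0.12 to 0.0322. This setting asks for strands above background on the I/R array in place of the control array, and the cause of the turn was not tested. With normexp the median strand differences were 1.19 and 1.19 on the log2 scale, shifts 9 and 16, strands higher 52 and lower 53, both higher 5, both lower 0, opposite 4, and median log2 folds −0.0754 for stronger and −0.0217 for weaker strands. Of the 10 largest shifts among the 541 regions above background on both arrays, 0 turned direction under any normalization, and 2 went under 2-fold with normexp (MM9LINCRNAEXON11950 and MM9LINCRNAEXON10349). Cyclic loess gave 18 regions with both lower and medians of −0.0539 and −0.0018. Normalizing over lincRNA-style and ultraconserved probes only gave −0.0811 and −0.0447. For normexp, cyclic loess and the probe set, the cause was not tested. At 4-fold there were 8 and 17 shifts, at 1.5-fold 138 and 135. At 2-fold for strands, 44 were higher and 78 lower, with 1, 1 and 3 regions. With the measurement interval 164 strands were lower and 12 regions had both lower. Dim signals limit these values, with a lowest signal above background of 12.5 on the control array and 17.5 on the I/R array.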
